A study of Mus musculus with 8 samples.

Results

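Sperm-egg fusion genes encode the sperm proteins that join the membrane of the fertilising sperm to that of the egg. The set was given by name and covers 8 mouse genes, namely Izumo1, Izumo2, Izumo3, Izumo4, Spaca6, Tmem95, Dcst1 and Dcst2. Of these, 7 have a row in the table of 23983 genes, matched by gene symbol, and Dcst2 is not analysed here, since neither its symbol nor its synonym Gm760 was found. The members were read in RNA-seq of C57BL/6J mouse testis at d12, d16 and d24 (days after birth) and in adult testis, with 1 library per stage made from total RNA of a testis piece. The labels name no transgene and no treatment for these libraries, and they give no day for the adult stage. Chromatin samples of these stages, 4 with H3K27Ac ChIP-seq, are not analysed here. The study used such stages to find genes that are switched on after meiosis.

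Germ cells of the first wave of mouse spermatogenesis move through meiosis together, so that testes of rising age add first spermatocytes, then round spermatids and last elongating spermatids. Spermatids build the acrosome, a secretory vesicle over the nucleus, and most proteins of sperm-egg fusion are made at that time and held in the membranes of the acrosome until it opens. IZUMO1 binds JUNO on the egg and is needed for fusion, and SPACA6, TMEM95, DCST1 and DCST2 are each needed as well. IZUMO2, IZUMO3 and IZUMO4 share the Izumo domain with IZUMO1.

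Values are FPKM, fragments per kilobase of transcript and 1000000 fragments, which allow levels to be compared between genes per length. The number of fragments behind a value was recovered from the steps between low values, and the interval given with a value is an exact 95% interval from that number. It covers counting error only. No stage has more than 1 library, so no difference between stages could be set against the spread between animals, and no test between stages was made. The values implied 9325360 fragments on genes for d12, 9917817 for d16, 24974888 for d24 and 12736281 for adult testis. A gene with no fragment was given the value of 3 fragments as its limit. The stages were checked with 6 marker genes for each cell type, except macrophages with 4 listed and 3 found. The summed level of the pachytene spermatocyte markers was 68.7, 868.4, 3722 and 4471 FPKM from d12 to adult testis, that of the round spermatid markers 3.64, 24.5, 805.8 and 1944 FPKM, and that of the elongating spermatid markers 13.1, 4.33, 2325 and 26087 FPKM. Of the somatic cells, the Sertoli cell list summed to 878, 738.8, 498.6 and 516 FPKM and the Leydig cell list to 131.6, 82.4, 153.4 and 580.7 FPKM. Most of the Sertoli sum was Clu, with 706.7, 609, 419.6 and 456.6 FPKM. From d12 to adult testis Sox9 went from 12.2 to 2.14 FPKM, Wt1 from 40.3 to 12.7 and Cldn11 from 95.4 to 28.0. Over the same span Amh went from 3.12 to 0 FPKM and Rhox5 from 20.3 to 16.7. FPKM is relative to all fragments of a library, so a level can also fall as other cells add RNA. In RNA of whole testis, this, fewer cells of a type and less RNA per cell cannot be told apart.

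The members lie on 6 chromosomes, with positions in GRCm38 as annotated by RefSeq. Izumo1 is at chr7:45621811-45627242 on the plus strand and has 10 exons and a transcript of 1493 bp. Izumo2 is on the same chromosome and strand at chr7:44708730-44719848, with curated transcripts of 739 and 658 bp, and the shorter of them leaves out an exon of 81 bp at chr7:44712998-44713078. Izumo3 is at chr4:92144318-92147221 on the minus strand, Izumo4 at chr10:80702693-80705382 on the plus strand, Spaca6 at chr17:17830975-17839071 on the plus strand and Tmem95 at chr11:69876054-69878055 on the minus strand. Dcst1 is at chr3:89350219-89365253 on the minus strand with 16 exons, next to Dcst2 at chr3:89365319-89377643 on the plus strand with 15 exons.

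The 6 members other than the Dcst pair share a run of 4 coding exons. The run holds an exon of 57 to 81 bp, one of 69 to 90 bp, one of only 18 to 27 bp and one of 76 to 81 bp. Izumo1 and Izumo2 have the same 4 lengths, 75, 87, 21 and 81 bp, and Izumo3 has 75, 90, 18 and 81 bp. Izumo4 has 81, 72, 27 and 76 bp, Spaca6 has 81, 69, 24 and 78 bp, and Tmem95 has 57, 81, 21 and 81 bp. The last exon of the run is the one that the shorter Izumo2 transcript leaves out. Dcst1 and Dcst2 have no such run. These limits were set from the members after their exons were seen. Of 21000 coding genes with a curated transcript, 9 hold a run within them, the 6 members and Mysm1, Ryr1 and Ryr3, which are named for this search alone. The short exon of each run is shown here, read 5′ to 3′ on the strand of its gene from GRCm38. All 6 stand between AG before and GT after, the usual ends of introns.
Izumo1 exon 5, chr7:45624662-45624682: ttctttgtcccaacaaatgcg
Izumo2 exon 4, chr7:44710511-44710531: cctgtgaccacaaaacttgtc
Izumo3 exon 4, chr4:92146080-92146097: cttgttcagaagattgca
Izumo4 exon 4, chr10:80703730-80703756: gccgcattgactgtcagcgtcactgtg
Spaca6 exon 4, chr17:17836721-17836744: ccccggcctgcatccctccttgtg
Tmem95 exon 4, chr11:69877181-69877201: ctctttgtgctcctgtctgcc

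**Figure D1:**
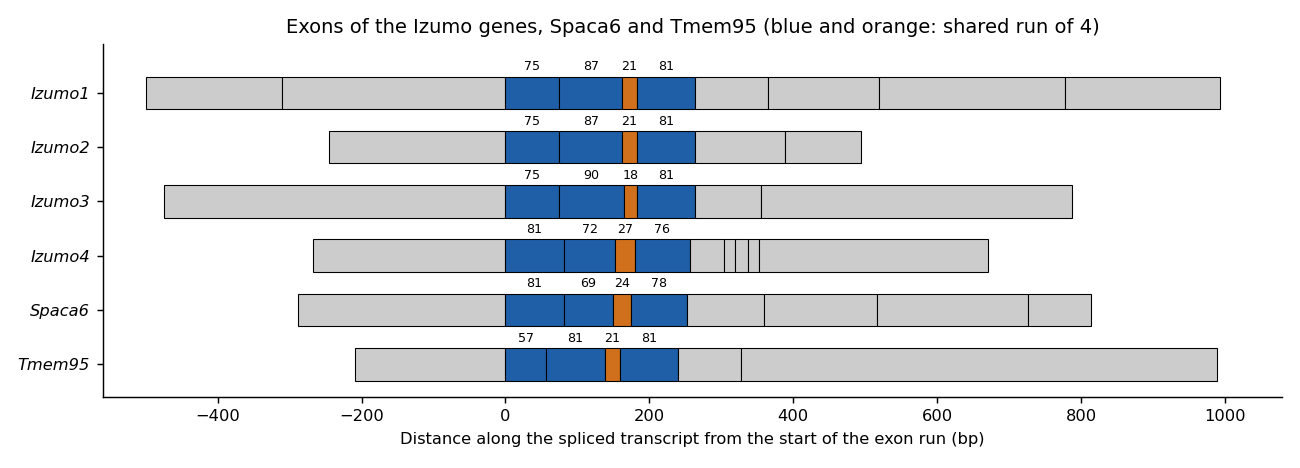
Exon lengths of Izumo1, Izumo2, Izumo3, Izumo4, Spaca6 and Tmem95 along the spliced transcript, in bp and to scale, set level at the start of the shared run. Blue and orange boxes are the 4 exons of the run with their lengths, and the orange box is the short exon of 18 to 27 bp.

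Promoters of 7 of the 8 members were read from the RefSeq table for GRCm38.p6, each with 250 bases before the start site and 50 after. Izumo4 has no entry. The cyclic AMP response element TGACGTCA, the letters bound by CREM, a transcription factor of spermatids, was searched on both strands and is found in 1.79% of 32851 promoters. Among the members it is found in that of Izumo1, from position -96 to -89, with the first transcribed base as 0. The Izumo1 promoter, chr7:45621561-45621860 on the plus strand, is shown with this element in capitals.
Izumo1 promoter: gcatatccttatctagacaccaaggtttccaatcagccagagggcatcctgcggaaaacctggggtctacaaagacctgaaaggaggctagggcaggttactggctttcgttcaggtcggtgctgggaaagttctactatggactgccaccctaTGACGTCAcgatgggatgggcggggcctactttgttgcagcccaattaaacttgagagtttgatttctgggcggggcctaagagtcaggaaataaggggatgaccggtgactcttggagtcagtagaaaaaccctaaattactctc
The shorter form TGACG is found in 20.81% of promoters, in that of Tmem95 from -208 to -204 and inside the longer element of Izumo1. The X box letters GTTGCC, bound by RFX factors, are found in 12.51% of promoters and in that of Spaca6, from -53 to -48. The 10-letter RFX motif that begins with them is found in 0.563% of promoters and in none of the 7. The MYB letters AACGG, in 17.45% of promoters, are found in that of Spaca6, and the SOX letters ACAATG, in 12.57% of promoters, in those of Tmem95 and Spaca6. The promoters of Izumo2, Izumo3, Dcst1 and Dcst2 hold none of these letters. A match is a description of the window and does not show a site in use.

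Dcst1 and Dcst2 are read away from each other, and the first bases of their curated transcripts lie at 89365253 and 89365319 of chromosome 3. The 65 bp between them, chr3:89365254-89365318, have 47.7% G and C and are shown on the plus strand because both genes start at their edges.
Dcst1 and Dcst2 gap: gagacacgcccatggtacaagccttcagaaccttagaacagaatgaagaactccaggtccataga

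In adult testis 6 of the 7 members lay between 33 and 105.4 FPKM, and Tmem95 lay far below them. Izumo3 had the highest adult level, 105.4 FPKM (99.5 to 111.6), followed by Izumo2 with 103.9 FPKM (95.9 to 112.6), and the intervals of this pair overlap. Izumo1 followed with 82.5 FPKM (77.7 to 87.5) and Dcst1 with 48.9 FPKM (45.9 to 52.0). Spaca6 at 37.5 FPKM (33.7 to 41.5) and Izumo4 at 33 FPKM (29.2 to 37.1) overlapped in their intervals, and Tmem95 had 2.11 FPKM (1.37 to 3.23). In the ranking of all 23983 genes of the adult library, Izumo3 stood at place 1303, Izumo1 at 1664, Dcst1 at 2651 and Tmem95 at 11764.

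At d24, when round spermatids are present, the order was another one, with Izumo1 first. Izumo1 had 35.1 FPKM (33.1 to 37.2) and Izumo3 29.6 FPKM (27.6 to 31.7). Izumo4 with 24.8 FPKM (22.7 to 27.04) and Izumo2 with 24.2 FPKM (21.7 to 26.8) overlapped, and Dcst1 with 16.8 FPKM (15.7 to 17.9) and Spaca6 with 13.0 FPKM (11.6 to 14.5) followed. Tmem95 was lowest again, with 1.03 FPKM (0.676 to 1.49). The intervals of all other neighbours in this order do not overlap.

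At d12 and d16 the members rested on few fragments, and Spaca6 and Izumo4 had the most. Spaca6 had 28 fragments and 2.03 FPKM at d12 and 8 fragments and 0.581 FPKM at d16. Izumo4 had 13 fragments and 1.11 FPKM at d12 and 43 fragments and 3.67 FPKM at d16. Izumo1 had 12 fragments at d12 and 2 at d16, or 0.642 and 0.107 FPKM, and Dcst1 had 2 and 1 fragments. Izumo3 had 2 fragments at d12 and none at d16, where the limit was 0.19 FPKM. Izumo2 and Tmem95 had no fragment at either stage, with limits of up to 0.365 FPKM for Izumo2 and of up to 0.2 FPKM for Tmem95.

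**Figure D2:**
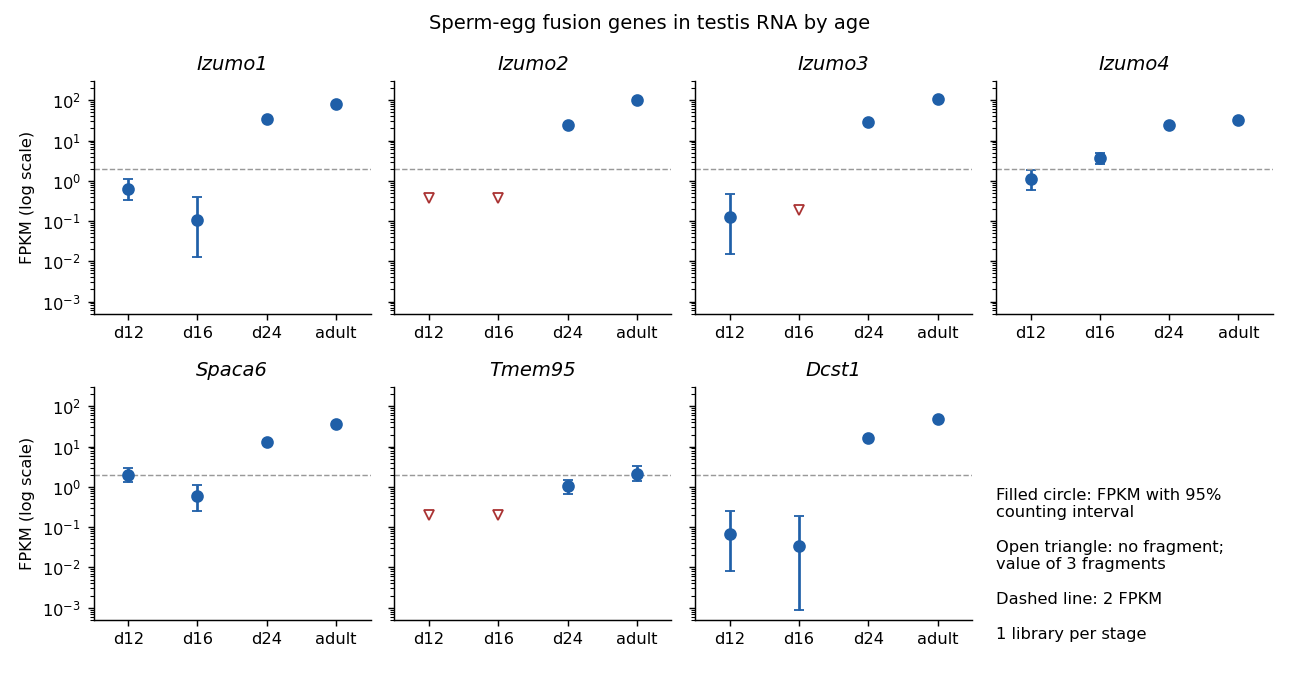
FPKM of the 7 members in testis at d12, d16, d24 and adult, on a log scale, with 1 library per stage. Filled circles are values with exact 95% counting intervals, open triangles mark stages with no fragment at the value of 3 fragments, and the dashed line is 2 FPKM. All members are highest in adult testis on this scale, Izumo4 not so with equal FPKM sums, and Izumo4 alone stands above the line at d16.

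The IZUMO family held both the largest and the smallest fold from d24 to adult testis among the 7 members, those of Izumo2 and Izumo4. IZUMO1 is the sperm protein that binds JUNO. Izumo1 was 327.7-fold higher at d24 than at d16 (90.5 to 2709, with 2 fragments at d16) and 2.35-fold higher in adult testis than at d24 (2.16 to 2.55). IZUMO2, is a membrane protein of the family. Izumo2 was at least 66.2-fold higher at d24 than at d16, against the limit of 3 fragments, and 4.3-fold higher in adult testis than at d24 (3.77 to 4.93). Its curated transcripts differ in length, and its fragments were counted with the shorter one, so its interval is less certain than those of the others. IZUMO3, a membrane protein needed to form the acrosome, was at least 155.7-fold higher at d24 than at d16 and 3.56-fold higher in adult testis than at d24 (3.26 to 3.9).

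Izumo4, whose product has no membrane anchor, was higher at d16 than at d12 and changed least afterwards among the IZUMO genes. It was 3.31-fold higher at d16 than at d12 (1.75 to 6.72), 6.76-fold higher at d24 than at d16 (4.95 to 9.46) and 1.33-fold higher in adult testis than at d24 (1.14 to 1.54). The last of these lies under 2-fold, and it turned to 0.954-fold when libraries were set to equal FPKM sums. Its level at d24 was 75.2% of the adult level (64.8 to 87.3), above the intervals of Izumo1, Izumo2 and Izumo3.

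SPACA6 is a membrane protein that forms a complex with IZUMO1 and TMEM81 on the sperm. Spaca6 was the only member to reach 2 FPKM at d12, with 2.03 FPKM (1.35 to 2.93), an interval that includes 2 FPKM. It then lay at 0.286 of that level at d16 (0.113 to 0.645), was 22.4-fold higher at d24 (11.2 to 52.4) and a further 2.88-fold higher in adult testis (2.47 to 3.36). Its span in the annotation, which begins before the curated transcript, overlaps Has1 on the other strand and holds 3 microRNA genes. Has1 had between 0.0536 and 0.306 FPKM at the 4 stages, and Mir99b, Mirlet7e and Mir125a were listed at 0. The part of Has1 in the values of Spaca6 was not tested.

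TMEM95, a small membrane protein of the acrosome, had the lowest transcript level of the set. Tmem95 was at least 5.13-fold above the limit of 3 fragments at d24 and 2.05-fold higher in adult testis than at d24 (1.15 to 3.8), from 27 and 23 fragments. Its adult value did not come out as a whole number of fragments. In adult testis its level was 0.0256 of that of Izumo1 (0.0165 to 0.0394) and at d24 it was 0.0293 (0.0192 to 0.0427), so that the ratio of this pair stayed within its counting error.

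DCST1 belongs to the DC-STAMP family, membrane proteins with several passes through the membrane, and acts with DCST2. Dcst1 had 2, 1, 863 and 1021 fragments from d12 to adult testis. It was 484.8-fold higher at d24 than at d16, with an interval of 87.9 to 19417 because 1 fragment was seen at d16, and 2.92-fold higher in adult testis than at d24 (2.66 to 3.2). Its span overlaps that of Dcst2 in the annotation used, through predicted transcripts of Dcst2 on the other strand.

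From d16 to d24 all 7 members were at least 2-fold higher, on a log2 scale with 0.1 FPKM added, among 15361 genes whose 4 libraries average 0.5 FPKM or more. Of all these genes, 27.4% were higher by this measure. The median difference of the members was 6.97 on the log2 scale, against 0.11 over all genes. With Izumo2, Izumo3 and Tmem95 set at their lower bounds the median was 6.05. All 7 members passed the filter on low values, and all but Spaca6 and Izumo4 passed through d24 and adult testis only, so that Izumo1, Izumo2, Izumo3, Tmem95 and Dcst1 had to be higher at these stages. The count and the median are therefore descriptions. In these libraries all 6 markers of each of the 3 germ cell lists were at least 2-fold higher at d24 too. Their summed levels went from 868.4 to 3722 FPKM for pachytene spermatocytes, from 24.5 to 805.8 FPKM for round spermatids and from 4.33 to 2325 FPKM for elongating spermatids. At d16 the round spermatid markers ranged from 0 for Acrv1 and Catsper3 to 19.5 FPKM for Actl7b, and Gapdhs of the elongating spermatid list had no fragment. The part of these cells in the result was not tested.

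From d24 to adult 5 of 7 members were at least 2-fold higher, namely Izumo1, Izumo2, Izumo3, Spaca6 and Dcst1, while 12% of all genes were. Izumo4 stayed under this fold, as did Tmem95 once 0.1 FPKM was added to its values, with a log2 difference of 0.97. No member was lower by 2-fold. The median difference was 1.52 on the log2 scale, against -0.01 over all genes. With equal FPKM sums, Izumo1 came to 1.68-fold and 4 members were left, while 7.61% of all genes were past 2-fold. Between these libraries the summed level of the round spermatid markers went from 805.8 to 1944 FPKM, that of the elongating spermatid markers from 2325 to 26087 FPKM and that of the Leydig cell markers from 153.4 to 580.7 FPKM, and their part in the result was not tested.

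From d12 to d16 only Izumo4 was at least 2-fold higher, while 12.4% of all genes were. Izumo1, Izumo3 and Spaca6 were at least 2-fold lower by the log2 measure, while 4.74% of all genes were. All 3 of these calls were lost with a pseudocount of 1 FPKM, and those of Izumo3 and Spaca6 with division by Gapdh. Gapdh itself went from 68.9 to 42.6 FPKM, so division by it raised the folds of all genes, with a median of 0.61 on the log2 scale. The interval of the fold lies clear of 1 for Izumo1, at 0.167 (0.0181 to 0.75), and for Spaca6. For Izumo3, with 2 fragments and none, it does not. Over the 7 members together, 57 fragments were seen at d12 and 54 at d16. All 6 elongating spermatid markers were higher at d12 than at d16 too, with 89 and 29 fragments over Prm1, Prm2, Tnp1, Tnp2, Odf1 and Gapdhs, and Gapdhs had none at d16. None of the 6 pachytene spermatocyte markers was higher at d12, with 2240 and 23486 fragments. Of the 6 round spermatid markers, 2 were. The part of the elongating spermatid markers in the d12 values of Izumo1 and Spaca6 was not tested. At d12 the share of the adult level was 5.42% for Spaca6, 3.35% for Izumo4 and 0.778% for Izumo1. It was 0.141% for Dcst1, 0.12% for Izumo3 and 0 for Izumo2 and Tmem95. The median of the members was thus the value of Dcst1, from 2 fragments. The elongating spermatid markers had a median of 0.0593%, from 0.0419% for Prm2 to 0.0842% for Gapdhs.

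By the stage at which they first reached 2 FPKM, the threshold in the methods of the study, the members fell into 4 classes. Spaca6 reached it at d12, as 44.9% of all genes did, and lay under it at d16. Izumo4 first reached it at d16, as 3.55% of the 23983 genes did. Izumo1, Izumo2, Izumo3 and Dcst1 first reached it at d24, as 6.3% of all genes did. Tmem95 first reached it in adult testis, as 1.98% of all genes did, with an interval that includes 2 FPKM. With equal FPKM sums, Izumo1 and Izumo4 moved to d12 and Tmem95 to d24, which left the classes of d16 and adult testis with 0 members. Of all genes, 56.2%, 3.28%, 5.13% and 1.13% then fell into the classes of d12, d16, d24 and adult testis.

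The level at d24 as a share of the adult level spread the members over a range from Izumo2 to Izumo4. Izumo2 was at 23.2% (20.3 to 26.5), Izumo3 at 28.1% (25.6 to 30.7), Dcst1 at 34.3% (31.3 to 37.6), Spaca6 at 34.7% (29.8 to 40.5), Izumo1 at 42.6% (39.2 to 46.3), Tmem95 at 48.7% (26.3 to 87.0) and Izumo4 at 75.2%. The intervals of Dcst1 and Spaca6 overlap, and that of Tmem95 overlaps those of all other members. Izumo1 stands above Izumo2, Izumo3 and Dcst1 beyond counting error. The median over the members was 34.7%, against 100.9% over all genes tested. Of the members, 14.3% or 1 of 7 had at least 50% of the adult level at d24, and of all genes 87.4% had.

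Among the marker lists of pachytene spermatocytes, round spermatids and elongating spermatids, the median of the members lay nearest to that of round spermatids. The Leydig cell markers, outside these lists, had a similar median of 40.6% (18.6 to 73.4), so a share of this size is not particular to round spermatids. Other marker lists had medians of 106.9% for early meiotic spermatocytes, 116.5% for Sertoli cells, 130.6% for macrophages and 143.7% for spermatogonia. The 6 round spermatid markers had a median of 38.9%, from 14.3% for Tssk6 to 51.2% for Catsper3. The pachytene spermatocyte markers had a median of 93% (40.4 to 122.5). The elongating spermatid markers had 12.6%, from 5.72% for Prm2 to 23.5% for Gapdhs. Izumo2 alone had a share below the highest of the elongating spermatid markers, by less than its counting error, and Izumo4 alone lay above all round spermatid markers. With 1 library per stage, these positions are descriptions of the 4 libraries.

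**Figure D3:**
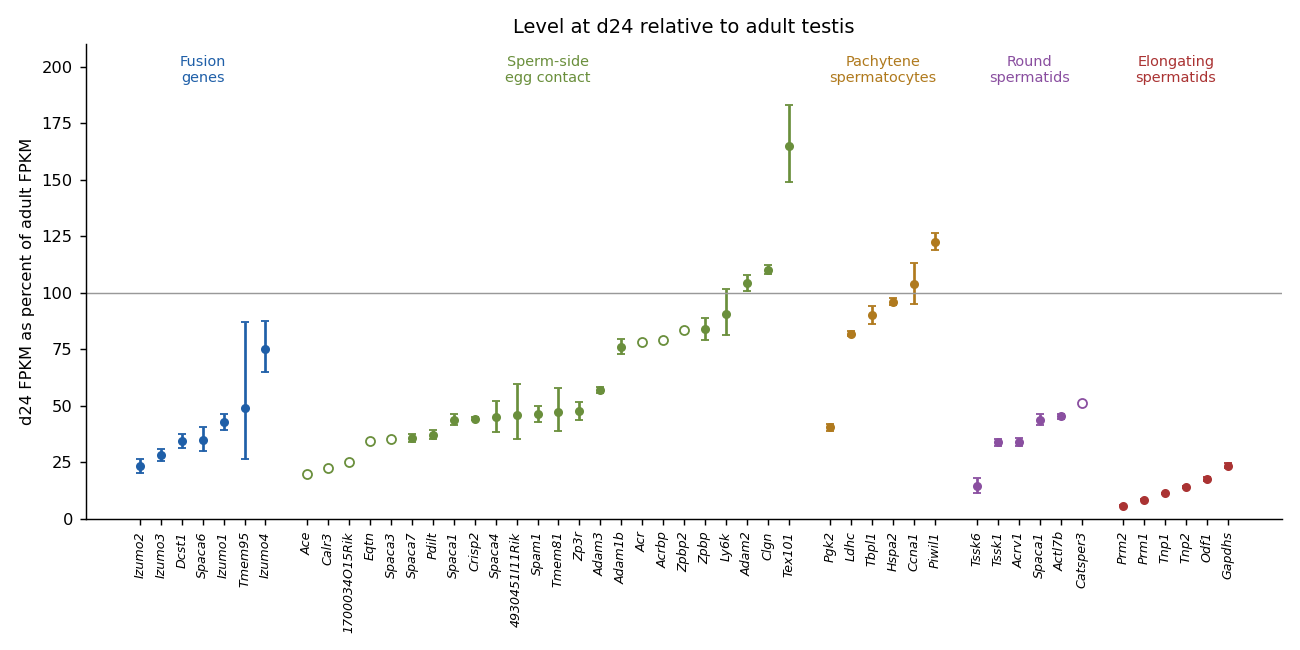
Level at d24 as percent of the adult level, with exact 95% counting intervals. Shown are the members, other sperm-side genes of egg contact or of steps before it, and markers of 3 germ cell stages. Open circles are genes whose fragments could not be counted, and Spaca1 is in both the egg contact and the round spermatid list. The members spread from 23.2% to 75.2%, the elongating spermatid markers from 5.72% to 23.5% and the pachytene spermatocyte markers from 40.4% to 122.5%.

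Ratios of a pair of genes within a library do not depend on how libraries are scaled to each other, and they show the change of order among the members. Izumo2 was at 0.688 of Izumo1 at d24 (0.608 to 0.775) and at 1.26 in adult testis (1.14 to 1.39). Izumo3 went the same way, from 0.843 (0.769 to 0.922) to 1.28 (1.18 to 1.39). Both were thus below Izumo1 at d24 and above it in adult testis, beyond counting error. Izumo4 went the other way, from 0.706 (0.635 to 0.784) to 0.4 (0.349 to 0.457). Spaca6 moved from 0.371 (0.326 to 0.42) to 0.454 (0.402 to 0.511) and Dcst1 from 0.478 (0.437 to 0.522) to 0.593 (0.544 to 0.646). The intervals of Spaca6 at both stages overlap and those of Dcst1 do not. At d16 Izumo4 was 34.2-fold above Izumo1 (8.91 to 291.6), the reverse of the order at d24.

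**Figure D4:**
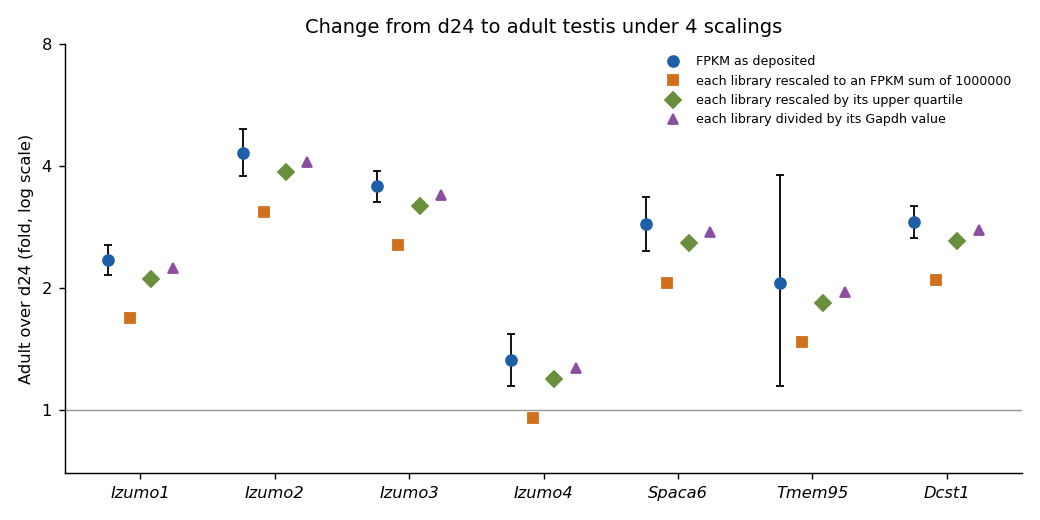
Fold from d24 to adult testis for the 7 members on a log scale, for FPKM as deposited, with exact 95% counting intervals, and after 3 other scalings between libraries. A scaling multiplies the folds of all genes by the same factor, so the order of the members is fixed, and Izumo4 falls below 1 with equal FPKM sums.

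The scaling between libraries moved all members together. With equal FPKM sums, the median of all genes shifted to -0.50 from d16 to d24 and to -0.49 from d24 to adult on the log2 scale, and with division by Gapdh to 1.25 and -0.08. The median of the members relative to that of all genes from d24 to adult was 1.53 with the deposited values, equal FPKM sums and the upper quartile, and 1.54 with Gapdh (all on the log2 scale). A scaling shifts both medians by nearly the same amount, so this closeness follows from the construction. From d16 to d24 the relative median ranged from 6.74 with Gapdh to 7.87 with equal FPKM sums. From d12 to d16 it ranged from -0.686 with Gapdh to -0.283 with the upper quartile. From d16 to d24 all 7 members stayed past 2-fold under the 3 other scalings, while the share of all genes past it was 19.5% with equal FPKM sums, 20.7% with the upper quartile and 59.5% with Gapdh.

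Other sperm-side genes of egg contact, or of steps before it such as protein folding by Clgn, were read from a list of 24 genes. From d16 to d24, 22 of them were at least 2-fold higher, while 27.4% of all genes were. From d24 to adult 14 were, against 12% of all genes. From d12 to d16, 13 were higher and 1 was lower, against 12.4% and 4.74% of all genes. Llcfc1, a further gene needed for fusion and listed as 1700034O15Rik, had 613.7 FPKM in adult testis and 153.5 FPKM at d24, which is 25% of it. Fimp, also needed for fusion and listed as 4930451I11Rik, had 12.4 FPKM at d24 and 26.9 FPKM in adult testis. Tmem81, the partner of IZUMO1 and SPACA6 in their complex, had 0.825, 1.29, 5.91 and 12.5 FPKM from d12 to adult testis, and its share at d24 was 47.3%. In adult testis the level of Tmem81 thus lay below that of Spaca6, 37.5 FPKM, and above that of Tmem95. Eqtn, for a membrane protein of the acrosome, had 42.2 and 123 FPKM at d24 and in adult testis, and Spaca4, for a surface protein that binds the egg coat, 23.5 and 52.4 FPKM.

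Within this list, genes already on at d16 had a higher median share of their adult level at d24, with exceptions. The 14 genes with at least 2 FPKM at d16 had a median share of 78.5% (19.9 to 165). Of them, 10 had at least 50%, as 87.4% of all genes had, and Adam2, Clgn and Tex101 were highest. Crisp2 (44.3%), Spaca1 (43.8%), Calr3 (22.5%) and Ace (19.9%) did not reach 50%. Calr3 and Ace lay below every gene of the other subset. The 10 genes under 2 FPKM at d16 had a median of 40.9% (25 to 47.6), and none had 50%. Of the 15361 genes tested, 4441 lay under 2 FPKM at d16, and how many of these had 50% was not counted. Among the members, Izumo4, the only one at 2 FPKM at d16, had 75.2% and the other 6 had between 23.2% and 48.7%. Adam2 and Clgn serve the egg coat and the folding of sperm surface proteins and not fusion itself. The split was made after the values were seen, and all of these shares rest on the same d24 and adult libraries.

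Of 7 genes of the egg side, 5 stayed under 0.5 FPKM at every stage, and Cd9 and Cd81 were higher. Folr4, the gene of JUNO, had no fragment at any stage, with limits of 0.125 FPKM at d24 and 0.309 FPKM in adult testis. Zp1 had 3 fragments at d24 only, Zp2 had 2 at d12 only, Zp3 had 8, 7, 4 and 0 fragments, and Astl had none. Zp1, Zp2 and Zp3 encode egg coat proteins, and Astl encodes a protease that acts on the egg coat. Cd9 and Cd81, for membrane proteins of the egg that many other cells make, went the other way from the fusion genes. Cd9 had 22.2, 11.8, 3.02 and 2.73 FPKM and Cd81 54.9, 43.2, 27.4 and 20.5 FPKM at the 4 stages.

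Relatives of Dcst1 and the muscle fusion genes were low. Dcstamp and Ocstamp, the relatives of Dcst1 that act in the fusion of osteoclasts, had at most 0.124 and 0.287 FPKM, against 48.9 FPKM for Dcst1 in adult testis. The muscle fusion genes Mymk, listed as Tmem8c, and Mymx, listed as Gm7325, had at most 0.0751 and 0.555 FPKM.

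The genes nearest in stage pattern were named by the distance between the shares of the 4 stages, over 13594 genes with at least 2 FPKM in a library. This is a description over 4 libraries. Nearest to Izumo1 were Mageb5 and Fam209, at distances of 0.00204 and 0.00395. Nearest to Izumo2 were Fam71a and 4931431F19Rik, and nearest to Izumo3 were Aldoart2 and 4930542C21Rik. Nearest to Dcst1 were Odf3, for a protein of the outer dense fibres of the sperm tail, and 4933404G15Rik. Nearest to Tmem95 were 1700092C10Rik and 4930480E11Rik. Izumo4 had Rwdd2a and Med9os at its side, at distances of 0.00524 and 0.00826. Spaca6 stood most alone, with Gm9 and Lpin1 at distances of 0.0143 and 0.0179 and 101 genes within 0.05. For the other members, from 234 to 328 genes lay within that distance.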

How the data were processed

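Total RNA of a testis piece was sequenced as strand-specific paired reads of 50 bp, in 1 library for each of d12, d16, d24 and adult. Per the labels and the methods, the authors used TopHat2 2.1.0 with Bowtie 1.1.2 and RefSeq genes to map the reads to GRCm38/mm10. They deposited FPKM values per gene that Cuffdiff (Cufflinks 2.2.1) had corrected for multi-reads and bias but not for effective length. The scaling between libraries is not given in the sources used here.

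Fragments were recovered by dividing each value by that of 1 fragment, which was found over 15427 genes with 1 curated transcript. Of the low values, 91.4 to 92.5% came out within 0.05 of a whole number. Exact 95% Poisson intervals were used for levels and Clopper-Pearson intervals for ratios, and they cover counting error only. For a transcript of 1 kb, 3 fragments are 0.24 FPKM at d12 and d16, 0.137 at d24 and 0.336 in adult testis. A call is a difference of at least 2-fold after adding 0.1 FPKM, among genes that average 0.5 FPKM or more. Genes named are the members, the genes of the lists, the 2 genes nearest in pattern to each member, Gapdh and genes that overlap a member.

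The members and lists were chosen with earlier results of these data known. Alternatives were other scalings, pseudocounts, filters, folds, thresholds, pattern measures and promoter windows, and a call that needs the counting interval of the fold clear of 1 was added after the values were seen. Scripts were tested on simulated data. Python 3.11.15, numpy 2.4.6, pandas 2.3.3, scipy 1.17.1 and matplotlib 3.10.9 were used.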

Additional observations from a re-analysis of the deposited data

How the results depend on the processing

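Of 109 alternatives over 30 results, 77 left the result in place, 31 moved it and 1 reversed it. A fold or share was in place within the counting interval of the main value, and a median within that of its middle member. For the median from d12 to d16 this was Dcst1, with an interval of 0.00849 to 9.62, so that label says little. A count was in place when near the main count, even where the members in it differed. With equal FPKM sums in the libraries, the fold of Izumo4 from d24 to adult turned to 0.954, the median log2 difference of the members from d24 to adult came to 1.04 and their median share of the adult level at d24 to 48.5%. A fold of 4 left 0 members higher and 0 lower at d16 than at d12, and 1 member, Izumo2, higher in adult testis than at d24. Of all genes, 6.05%, 0.527% and 3.39% passed it, in this order. Members lower at d16 than at d12 numbered 1 with division by Gapdh and 0 with a pseudocount of 1 FPKM, against 1.13% and 0.996% of all genes. The class that first reached the threshold at d12 held 2 members at a threshold of 1 FPKM, 0 at 5 FPKM and 3 with equal FPKM sums. It held 51.4%, 33.2% and 56.2% of all genes under these settings. The class of d16 held 0 members under each of these settings, and 3.54%, 3.78% and 3.28% of all genes. The class of adult testis held 0 members under each of these settings and with the upper quartile, and 2.12%, 1.98%, 1.13% and 1.38% of all genes. Of 14 pairs of nearest genes, 2 were kept with centred log2 values. In a window from 100 bases before to 50 after the start site, the cyclic AMP response element was found in 1.4% and the X box letters in 6.89% of promoters. The call from d16 to d24 held for 7 of 7 members under the 3 other scalings. It held for 6 of 6 with a mean of at least 2 FPKM, which left out Tmem95, while 28.2% of all genes passed. For scalings the cause is their construction, and for the others it was not tested. No paired analysis was possible because each stage has 1 library. A comparison of the proteins was planned and not run. Depth limits the d12 and d16 values, which rest on up to 43 fragments.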
